A study of Mus musculus with 6 samples.

Results

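The p200 family genes Ifi202b, Ifi203, Ifi204, Ifi205 and Ifi211 were examined in RAW 264.7, a mouse macrophage cell line, after 48 h with lipopolysaccharide (LPS, 100 ng/ml) and LPS-binding protein (LBP, 100 pM) against untreated cells of the same line cultured for 48 h. The members were chosen by gene symbol: every probe that the platform annotation names with 1 of these 5 symbols. This gave 6 of the 16281 probes, with 3 for Ifi202b, 1 each for Ifi203, Ifi204 and Ifi211, and 0 for Ifi205. The gene family was proposed with the treated over untreated ratios known, so those ratios are given as a description, with no test. Treated and untreated RNA were hybridised together on 6 two-colour arrays, 3 with treated RNA in Cy5 (red) and 3 with it in Cy3 (green), in sets numbered 1, 2 and 3 in each orientation. Each value is a log2 ratio of treated over untreated cells, with the sign turned on the 3 arrays that carried treated RNA in Cy3, and the error is the SD between the 3 sets (n = 3), after the 2 orientations of a set were averaged. The labels do not state that the sets were separate cultures, so this spread may be technical. The series title and some labels write the number of the cell line differently, and all were read as RAW 264.7. RAW 264.7 is 1 transformed line derived from a BALB/c mouse, and LPS and LBP were always given together, so the effect of either alone cannot be told apart.

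The p200 genes lie in 1 cluster on mouse chromosome 1 and were first described as a set of interferon-induced genes. Their proteins carry 1 or 2 HIN domains, which bind DNA, and most also carry a pyrin domain, through which they join other proteins of inflammasome and interferon pathways. LPS sensed through Tlr4 leads macrophages to make type I interferon, which acts back on the cells through its receptor and STAT proteins and switches on genes with an interferon-stimulated response element (ISRE). Interferon gamma acts on genes with a gamma-activated site (GAS). In macrophages p200 proteins are known as DNA sensors and as regulators of proliferation and of inflammasomes.

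Promoters are shown first because the 5 members are neighbours in 1 cluster. The sequences come from RefSeq (GRCm38.p6, reference strain C57BL/6J), whose promoter table gives 250 bases before to 50 bases after an annotated start. It held windows for Ifi202b, Ifi203, Ifi205 and Ifi211, and none was matched for Ifi204. An ISRE core was searched as GAAANNGAA and a GAS as TTCNNNGAA, both strands, with N any base. The lines give 54-base stretches around the ISRE core, which is in capitals, first for 3 members and then for 3 other genes of the cluster for comparison.
Ifi203, chr1:173942494-173942547, minus strand: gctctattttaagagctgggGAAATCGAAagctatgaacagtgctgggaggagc
Ifi205, chr1:174031856-174031909, minus strand: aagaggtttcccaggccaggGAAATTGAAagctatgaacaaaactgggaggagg
Ifi211, chr1:173913050-173913103, minus strand: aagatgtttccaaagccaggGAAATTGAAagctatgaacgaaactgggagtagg
Mndal, chr1:173880190-173880243, minus strand: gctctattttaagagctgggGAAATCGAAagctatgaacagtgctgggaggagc
Ifi207, chr1:173741817-173741870, minus strand: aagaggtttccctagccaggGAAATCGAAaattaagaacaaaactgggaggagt
Ifi213, chr1:173599312-173599365, minus strand: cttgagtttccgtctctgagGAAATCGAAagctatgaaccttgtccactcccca

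Of the 4 members with a window, 3 held the ISRE core letters (3 of 5 windows). So did 6 of the 8 other p200 genes of the cluster with a window (7 of 9 windows). Of all 32851 windows in the table, 8.56% held these letters. Several windows of the cluster are near copies, such as Ifi206 and Ifi208 at 99.3% of 281 aligned bases, so their matches are not independent. The core began 35 bases before the annotated start in Ifi203 and 37 bases before it in Ifi211. In Ifi205 it began 134 bases before the start, and a second match lay on the other strand beyond the start. The 2 annotated starts of Ifi203 gave 2 windows, of which 1 had the match. The letters after the core, agctatgaac, were the same in the printed stretches of Ifi203, Ifi205, Ifi211, Mndal and Ifi213, and differed in that of Ifi207. They were thus not particular to the members. The windows of Ifi205 and Ifi211 matched at 94.0% of 201 aligned bases. Ifi203 and Mndal matched at 97.6% of 289 bases, and the RefSeq gene table gives Mndal among the other names of Ifi203. This closeness is that of promoter windows, and the transcripts were not compared. The sequences of the probes were not used here either, so hybridisation to a paralog could not be checked. The windows are sequence of the reference strain, while the cells derive from a BALB/c mouse. The promoter sequence that these cells carry was not examined. In the reference strain, the 250 bases before the start of Ifi202b, the member with the highest ratios, held no ISRE core letters. They held 1 GAS match, in capitals in the next line, beginning 148 bases before the start, and 7.02% of all windows held that motif in the same 250 bases.
Ifi202b, chr1:173982845-173983094, minus strand: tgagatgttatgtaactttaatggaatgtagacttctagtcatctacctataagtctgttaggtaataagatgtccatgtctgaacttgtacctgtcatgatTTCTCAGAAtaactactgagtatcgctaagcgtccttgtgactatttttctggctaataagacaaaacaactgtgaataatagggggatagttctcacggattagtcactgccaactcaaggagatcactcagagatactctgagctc

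Ifi202b encodes p202, which has HIN domains and no pyrin domain and is known to bind DNA and to restrain the DNA sensor Aim2. Its 3 probes did not read alike. Probe 14550 read 5.29, 5.21 and 5.40 on the Cy5 arrays of sets 1, 2 and 3, where treated RNA was in Cy5, and 4.99, 4.85 and 5.28 on the Cy3 arrays of those sets. Its mean was 5.17 ± 0.16 (SD, n = 3), a 36.0-fold ratio. Probe 12729 read 5.25, 5.17 and 5.48 in Cy5 and 4.85, 4.85 and 5.29 in Cy3, with a mean of 5.15 ± 0.21 (35.5-fold). These 2 probes followed each other from array to array, differing by at most 0.14 on any array and by 0.02 ± 0.07 on average. Probe 17882, in contrast, read 0.01, -0.37 and 0.09 in Cy5 and 0.03, -0.10 and 0.43 in Cy3, with a mean of 0.01 ± 0.25. Its values lay on either side of 0, with 4 of 6 arrays above it, and its highest array was 4.41 below the lowest array of probe 12729. The platform lists probe 12729 with GenBank entry M31418, probe 14550 with NM_011940 and probe 17882 with NM_008327, and the RefSeq gene table gives the last 2 as transcripts of the same gene. A log ratio holds no level, so whether probe 17882 gave a signal above background on these arrays cannot be read from the values.

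Ifi204 encodes p204, which has a pyrin domain and 2 HIN domains, is often set beside human IFI16 as a sensor of cytosolic and nuclear DNA, and is also known for nucleolar and cell cycle roles. Its only probe, 12878, read 3.50, 3.52 and 3.39 on the Cy5 arrays and 3.59, 3.77 and 3.91 on the Cy3 arrays. The mean was 3.62 ± 0.06, or 12.3-fold. The arrays of the Cy3 orientation were all above those of the Cy5 orientation. The spread of the set means was small, with only 12.7% of the probes below it. However, the lowest and highest arrays, 3.39 and 3.91, were both of set 3 and averaged out in its mean. The SD therefore does not show the spread of single arrays.

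Ifi203 had probe 4990, which read 1.89, 2.04 and 2.15 in Cy5 and 1.84, 2.65 and 2.09 in Cy3, with a mean of 2.11 ± 0.24 (4.32-fold). The highest value was that of set 2 with treated RNA in Cy3. Ifi211, a close relative of Ifi205 that the RefSeq table also lists under the older name Ifi205b, had probe 9767, which read 1.47, 1.35 and 1.29 in Cy5 and 1.52, 1.93 and 1.77 in Cy3, with a mean of 1.56 ± 0.08 (2.94-fold). As for Ifi204, every array with treated RNA in Cy3 was above every array with it in Cy5. For Ifi205 no value can be given.

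**Figure D1:**
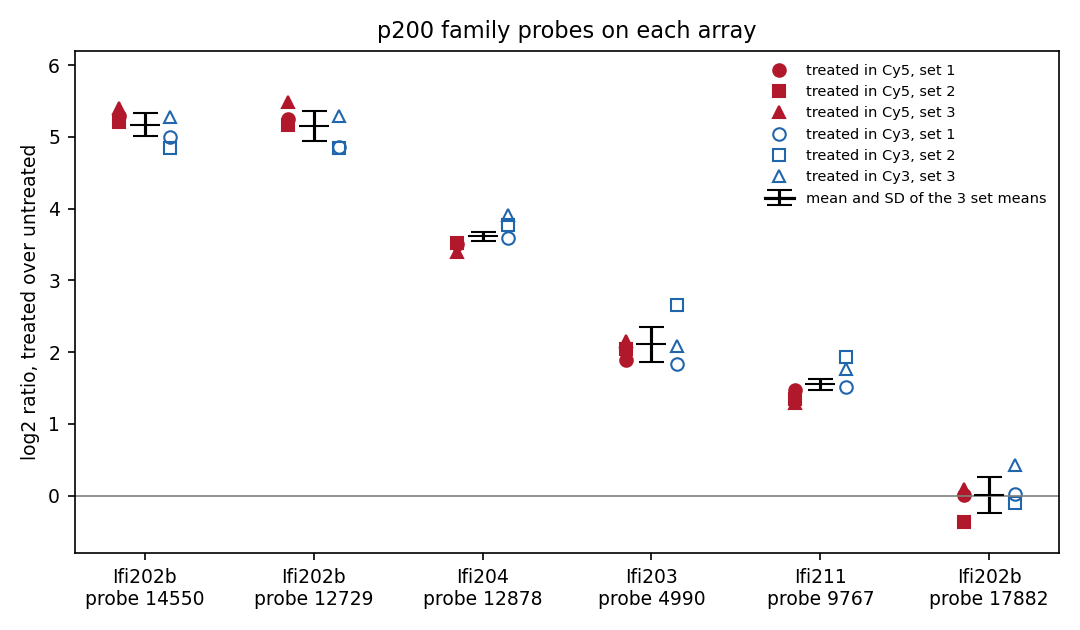
Log2 ratio of treated over untreated cells (vertical axis) for the 6 p200 family probes (horizontal axis), with filled red symbols for arrays with treated RNA in Cy5, open blue symbols for treated RNA in Cy3, symbol shape for the set, and a black bar and whiskers for the mean and SD of the 3 set means. The first 2 Ifi202b probes lie above 4.8 on all arrays, Ifi204, Ifi203 and Ifi211 follow in that order, and the third Ifi202b probe scatters around 0.

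The order of the ratios was Ifi202b (probes 14550 and 12729), Ifi204, Ifi203, Ifi211 and the third Ifi202b probe. The first 2 probes overlapped fully, with 14550 higher on 4 of 6 arrays. All arrays of the lower of these 2 probes were above all arrays of Ifi204, by at least 0.93. Those of Ifi204 were above all of Ifi203, by at least 0.74. Ifi203 and Ifi211 overlapped by 0.09 when arrays were pooled, although Ifi203 was higher than Ifi211 on each of the 6 arrays, by 0.32 to 0.86. Ifi204 and Ifi211 kept a nearly constant distance, 1.85 to 2.17 on single arrays and 2.06 ± 0.06 over sets. These are differences between ratios of different probes, not between transcript levels.

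Among the 12724 probes with a value other than 0 on all 6 arrays, Ifi202b held ranks 2 and 3 from the top, with probes 14550 and 12729. Each of these probes was the highest on at least 1 array. Ifi204 ranked 18, Ifi203 112 and Ifi211 195, while the third Ifi202b probe ranked 5746. On single arrays the rank of Ifi204 ran from 8 to 44 and that of Ifi211 from 164 to 300. Of the 6 probes, 5 were above 0 on all 6 arrays, as were 16.1% of all probes, and these 5 were at least 2-fold higher in treated cells, as were 3.08% of all probes. Since the family was proposed on these ratios, the shares describe its place in the table and no more.

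**Figure D2:**
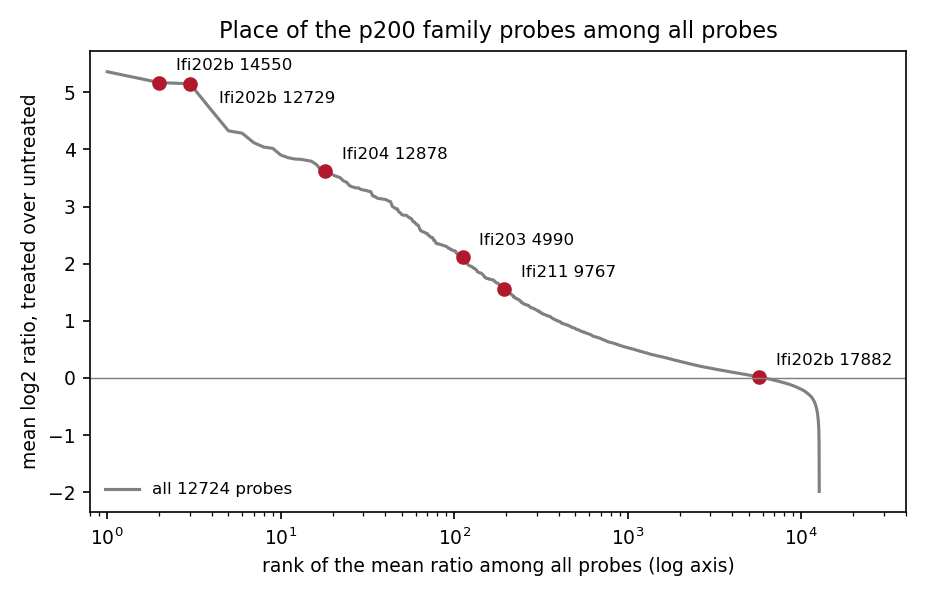
Mean log2 ratio of treated over untreated cells (vertical axis) against rank from the highest (horizontal axis, log scale) for 12724 probes as a grey line, with the 6 p200 family probes as red points. Probes 14550 and 12729 of Ifi202b stand at ranks 2 and 3, Ifi204 at 18, Ifi203 at 112, Ifi211 at 195 and the third Ifi202b probe at 5746.

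The dye effect, the part of a ratio that follows the dye and not the treatment, is independent of the treatment ratio and was tested for every probe (limma on the 3 averages per set of the unturned Cy5 over Cy3 ratio, Benjamini-Hochberg adjustment over 12724 probes). It was past an adjusted p of 0.05 for 0 of the 6 p200 probes and for 0.181% of all probes. At an unadjusted p under 0.05 there were 2 of 6, probe 12729 of Ifi202b and probe 9767 of Ifi211, beside 26.3% of all probes, so their number was near the background. In a fit over the 6 arrays 0 of the 6 passed, either with the set as a block, where 7.87% of all probes did, or without it, where 1.03% did. The estimates were 0.13 ± 0.06 for probe 14550 (adjusted p = 0.195) and 0.15 ± 0.05 for probe 12729 (adjusted p = 0.149), so that Ifi202b read higher with treated RNA in Cy5. They were -0.14 ± 0.11 for Ifi204 (adjusted p = 0.219), -0.08 ± 0.19 for Ifi203 (adjusted p = 0.558) and -0.18 ± 0.14 for Ifi211 (adjusted p = 0.186), so that these read higher with treated RNA in Cy3. For probe 17882 the estimate was -0.10 ± 0.08 (adjusted p = 0.288). A dye effect of these sizes would be small beside the ratios of the first 5 probes in the order, and it cancels in their means because each set holds both orientations. It is larger than the mean ratio of probe 17882.

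**Figure D3:**
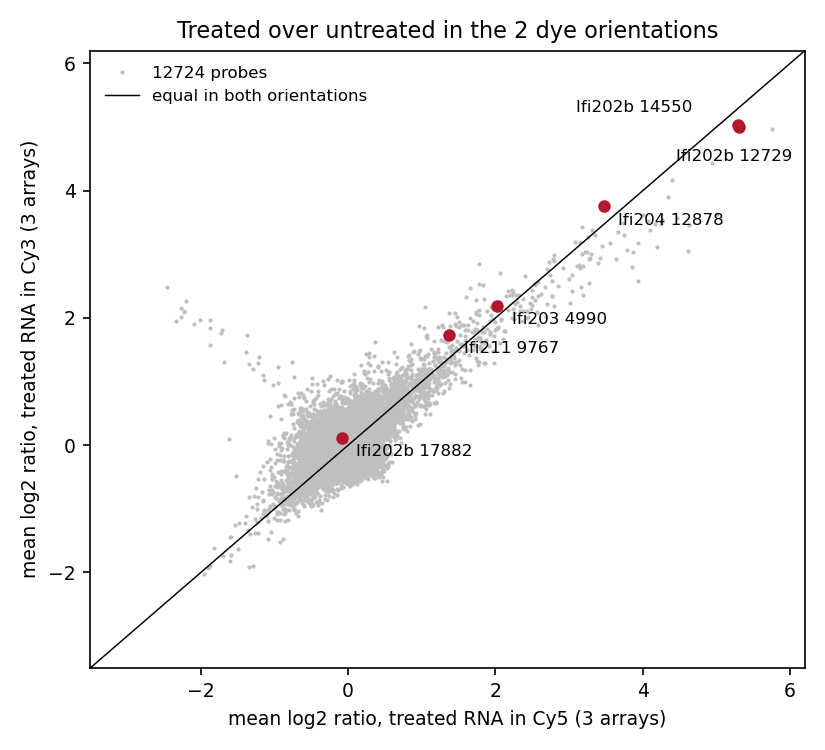
Mean log2 ratio of treated over untreated cells on the 3 arrays with treated RNA in Cy5 (horizontal axis) and on the 3 with treated RNA in Cy3 (vertical axis), for 12724 probes in grey and the 6 p200 family probes in red, with a line of equal values. The p200 probes lie close to the line, Ifi202b probes 14550 and 12729 slightly below it and the other 4 slightly above it.

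The probes of other genes with the most similar ratios were found as those with the smallest root mean square difference over the 6 arrays, among 11053 probes with 1 symbol. Nearest to probe 14550 of Ifi202b was Urah, an enzyme of urate breakdown, at a distance of 0.44, with a mean of 5.36 ± 0.31 and 1 array as high as 6.12. The guanylate-binding protein gene Gbp3 followed at 0.57 and the chemokine gene Ccl2 at 0.94, and only Urah was within 0.5. For Ifi204 the nearest were the antiviral and interferon-stimulated genes Trim30a (0.44), Ifit2 (0.46) and Mx1 (0.47), with means of 3.27, 3.29 and 3.61. Ifi203 lay among more numerous neighbours, 59 of them within 0.5. The nearest were the RNA-binding protein gene Zfp36 (0.19), the death receptor gene Fas (0.24) and the interferon-induced GTPase gene Irgm1 (0.27). Ifi211 had 134 within 0.5, led by Mustn1 (0.13), Phlda1 (0.18) and the transcription factor gene Batf (0.19). A short distance says that ratios were alike on these arrays and nothing of function.

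Other genes of the same pathways were read in the fit across all 12724 probes (limma, adjusted p under 0.05), in which 14.8% of probes were higher and 12.2% lower in treated cells, with a median log2 ratio of -0.01. The lists of pathway genes, like the members, were chosen with earlier results of these data known. Their counts and adjusted p-values, here and in the paragraphs below, are a description and no independent test. In type I and II interferon signalling, 13 of 21 tested probes were higher and 0 lower, with a median of 0.50. Usp18, which removes ISG15 from proteins and dampens the type I receptor, rose by 2.57 ± 0.15 (adjusted p = 5.66e-07), and Stat2, a subunit of the factor that binds the ISRE, rose by 1.57 ± 0.11 (adjusted p = 6.73e-06). The 2 probes of the receptor kinase Jak2 gave 1.27 and 1.24. The receptor gene Ifngr1 had the lowest probe of the list, at -0.12 ± 0.17, and its other probe was also at -0.12, neither past the threshold. Ifng was at 0.04 ± 0.06 on 1 probe without passing, and its second probe had a value other than 0 on only 1 array.

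Among genes of cytosolic DNA sensing, the pathway that p204 is known to feed, 11 of 18 tested probes were higher and 1 lower (8 and 1 with exact zeros kept as values), with a median of 0.36. The nucleic acid sensor gene Zbp1 rose by 2.96 ± 0.46 (adjusted p = 4.35e-06) and the interferon regulatory factor gene Irf7 by 2.83 ± 0.18 (adjusted p = 4.47e-07). Trex1, a nuclease that clears cytosolic DNA, rose by 1.64 ± 0.10, and the adaptor Sting1 by 0.82 ± 0.16 (adjusted p = 4.36e-04). Irf3 was at -0.11 ± 0.17 without passing, and the kinase Ikbke gave 1.49 ± 0.17 on 1 probe and -0.11 ± 0.07 on the other. Ifnb1, the gene of interferon beta, rose by 0.59 ± 0.25 (adjusted p = 0.00499), but not with zeros kept (adjusted p = 0.0989) or without the array of set 2 with treated RNA in Cy3 (adjusted p = 0.0934), over a range of 0.00153 to 0.0989. The helicase gene Dhx9 fell by 0.65 ± 0.38 (adjusted p = 0.00885, and 7.25e-05 to 0.155 over the alternatives). It did not pass with zeros kept (adjusted p = 0.155) or without set 2 (adjusted p = 0.0645). The number of lower probes was 2 without set 1 and 0 without set 2.

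Among inflammasome genes, whose assembly p200 proteins can prompt or restrain, 10 of 12 tested probes were higher and 0 lower, with a median of 0.97. With exact zeros kept as values, 7 were higher and 0 lower. Only 7 of the 12 listed genes had a probe, and Nlrp3, Nlrc4, Naip5, Nlrp1b and Gsdmd had none. The higher probes were those of Il1b, Il18, Casp4, Naip2 and Casp1, most of these genes being counted more than once. The 3 probes of the cytokine Il1b were highest, at 3.79 ± 0.31, 3.42 ± 0.22 and 3.36 ± 0.38, and Il18 rose by 1.18 ± 0.10 and 0.96 ± 0.10 on its 2 probes. The adaptor Pycard was at 0.09 ± 0.22 and the kinase Nek7 at -0.02 ± 0.03, neither past the threshold. The protease gene Casp1 read 2.80, 0.32 and 0.38 in Cy5 and 2.77, 0.86 and 0.71 in Cy3, so that set 1 stood well above the other sets. Its mean of 1.31 ± 1.28 (adjusted p = 0.0321) fell to 0.57 without set 1, and its adjusted p ran from 1.81e-04 to 0.304 over the alternatives, passing in 9 of 15.

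Described binding partners and targets of p202 and p204, a list with growth regulators, had 6 of 22 tested probes higher and 4 lower, and a median of 0.01. The transcription factor Myc rose by 2.47 ± 0.03 (adjusted p = 4.26e-07), and Fos rose on both its probes, by 1.42 ± 0.18 and 0.40 ± 0.06. The lower probes were those of Tgfb1, the retinoblastoma relative Rbl1, E2f1 and the nucleolar factor Ubtf, at -0.64 ± 0.23, -0.58 ± 0.20, -0.47 ± 0.16 and -0.39 ± 0.11. With zeros kept 0 of these 4 were called, and without set 2, or without the array of set 3 with treated RNA in Cy3, the number of lower probes was 2. Id1, one of the factors that p204 is known to bind, gave 0.95 ± 0.18 on 1 probe and 0.05 ± 0.26 on the other, the first past the threshold.

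**Figure D4:**
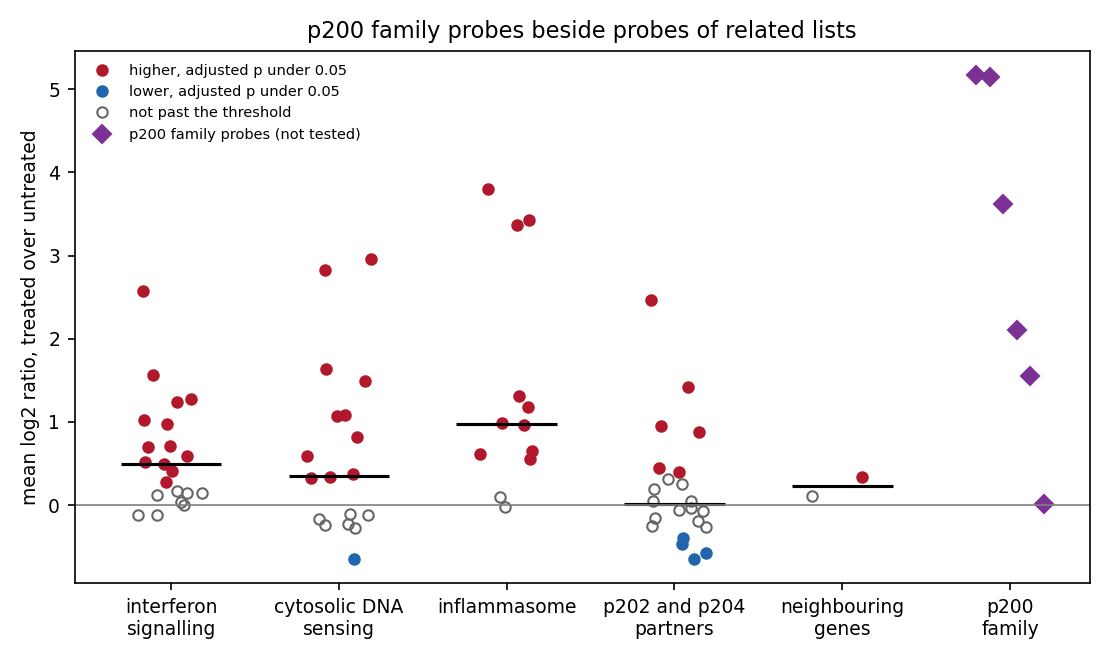
Mean log2 ratio of treated over untreated cells (vertical axis) for each tested probe of 5 groups of related genes (horizontal axis), filled red where higher and filled blue where lower at an adjusted p under 0.05 (limma), open grey where not past it, with a line at each group's median, beside the 6 p200 family probes as purple diamonds, which were not tested. The 2 highest Ifi202b probes lie above every probe of the 5 groups, and blue points occur in DNA sensing and among p202 and p204 partners.

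Of the other p200 genes in the cluster, Aim2, Mndal, Ifi206, Ifi207, Ifi208, Ifi209, Ifi213 and Ifi214 had no probe named with their symbols, so the family was read on 4 genes. The 10 protein-coding genes on each side of the members' span, by the RefSeq order, were mostly further p200 genes and olfactory receptor genes, and only Ackr1 and Cadm3 among them had a probe. Ackr1, a receptor that binds chemokines without signalling, was at 0.34 ± 0.08 (adjusted p = 0.0218) and did not pass in 5 of 15 alternatives, with a range of 0.00452 to 0.115, among them those without set 1 (adjusted p = 0.115) and without set 2 (adjusted p = 0.0679). The cell adhesion gene Cadm3 was at 0.11 ± 0.13 without passing.

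The table holds ratios only, so neither the macrophage markers nor those of other cells could be checked for presence, and fewer cells of a type cannot be told apart from less RNA per cell. Of 7 tested macrophage marker probes, Fcgr1 and Adgre1 were higher, Csf1r was lower and 4 did not pass. Of 27 tested probes for T cell, B cell, fibroblast, endothelial, epithelial and neutrophil markers, 3 were higher (Dcn, Cd79a and S100a9) and 1 was lower (S100a8). Probes of the last 2 genes differed. Probe 1907 of S100a8, untested for an exact zero on 1 array, ran from -0.026 to 0.67, with 4 arrays above 0. Probe 1609 of S100a9 was at 0.09 ± 0.09 without passing. The calls of Dcn and S100a8 were lost with zeros kept, that of Csf1r with zeros kept or without set 2, and that of S100a9 in 9 of 15 alternatives (adjusted p = 0.031, and 0.0205 to 0.51 over the alternatives). Their part in the p200 ratios was not tested. Arrays of 1 orientation correlated at 0.73 to 0.81 over probes and arrays of opposite orientation at -0.69 to -0.44 before the sign was turned.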

How the data were processed

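The authors deposited 1 log ratio of Cy5 over Cy3 per probe and array, read as log2. The base, background correction, dye normalization and filters on spots were not given in the sources used here, and with a natural logarithm every fold would be larger. Exact zeros (7.97% to 17.8% of an array) were treated as missing, and none fell on a p200 probe. The dyes named in the labels set the sign. Probes were named through the platform annotation, where 13738 have 1 symbol, 52 several and 2491 none.

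The 2 orientations of a set were averaged and the 3 set means tested against 0 over 12724 probes with limma 3.58.1 in R 4.3.3 (lmFit, eBayes, two-sided, Benjamini-Hochberg, threshold 0.05), for treatment and for dye. The procedure was tested on simulated data with independent noise on each array. These held no deviation shared within a set, so that feature of the data was not covered. The members and the lists were chosen with earlier results of these data known. Named were all member probes, members of 5 lists, including each list's highest and lowest probe, and the 3 most similar probes per member gene. Lists are described by counts and medians. Motifs were searched in 300-base RefSeq windows. Alternatives covered zeros, missing values, centring, scaling, the model, and leaving out sets or arrays.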

Additional observations from a re-analysis of the deposited data

How the results depend on the processing

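The mean ratios of the 5 p200 probes above 0 kept their direction in all 15 alternatives, and ran from 5.09 to 5.24 and from 5.03 to 5.22 for the 2 high Ifi202b probes, from 3.53 to 3.70 for Ifi204, from 1.99 to 2.23 for Ifi203 and from 1.46 to 1.65 for Ifi211. For Ifi204 and Ifi211 some values without 1 array moved beyond the SD, and the cause was not tested. Leaving out a single array leaves its set with 1 orientation, in which dye and treatment cannot be told apart, so the dye effect has no value in those 6 alternatives. Probe 17882 ran from -0.11 to 0.14. In the 9 alternatives that give a dye effect, 0 of the 6 p200 probes passed, with lowest adjusted p-values of 0.109 to 0.333 (limma). Of all probes tested, 7.87% passed with the set as a block and 1.03% in the fit over arrays without it. In the other 7 alternatives the share was between 0% (zeros kept, and without set 1) and 0.287%. Leaving out a set moved the estimate for Ifi203 between -0.14 and 0.027, above 0 without set 2.

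With zeros kept, 1407 of 16281 probes were called, 64.2% of them higher, against 3443 of 12724, 54.8% higher. Without set 2 the share was 61.8%. With zeros kept, 0 probes of p202 and p204 partners were lower. Lower probes in DNA sensing were 3 with the 6 arrays fitted without a replicate block, and leaving out sets or arrays gave 0 to 2 there and 2 to 5 among p202 and p204 partners. Higher counts ran, when sets or arrays were left out, from 8 to 11 in DNA sensing, 8 to 10 in inflammasome genes, 9 to 12 in interferon signalling and 4 to 7 among partners. With zeros kept the higher counts were 8, 7, 12 and 5 in that order. Among probes that did not pass, the sign turned in some cases when sets or arrays were left out. Cadm3 ran from -0.046 to 0.27, Ifngr1 probe 10932 from -0.27 to 0.032, Nek7 from -0.066 to 0.022, Pycard from -0.027 to 0.22, Id1 probe 9006 from -0.078 to 0.18, Ifng from -0.042 to 0.12 and S100a9 probe 1609 from -0.11 to 0.29. Of 45 probes with a call whose genes are named, the p200 family aside, 32 kept it in all 15 alternatives and 13 lost it in at least 1. The 13 are those of Casp1, Dhx9, Ifnb1, Ackr1, E2f1, Rbl1, Tgfb1, Ubtf, Csf1r, Dcn, S100a8, S100a9 and the weaker Fos probe, which did not pass without set 2 (adjusted p = 0.055). The 250 bases before the start alone gave the same 3 members with an ISRE core and 1 with a GAS.

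Arrays deviated together at r = 0.53, 0.08 and 0.17 within sets and -0.35 to 0.13 across sets. This overlap cannot settle pairing. With the set as a replicate block, the 6 arrays gave 3405 called probes, and 13, 10, 10 and 7 higher probes in interferon signalling, DNA sensing, inflammasome genes and partners.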
